A study of Homo sapiens with 6 samples.

Results

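The genes described here are 44 genes of the interferon response and of nucleic acid sensing, from the receptors and kinases of the interferon pathway to the antiviral proteins it switches on. They were picked by symbol from a list of the pathway, but with earlier results of these data known. Of the 44, 43 had a row among the 31814 genes of the deposited table. TRIM22 was not analysed here. The comparison was of H69 cells, a human cell line grown in RPMI medium with serum, after 24 h with 1 µM trichostatin A (TSA), an inhibitor of histone deacetylases, and of H69 cells after 24 h with the solvent DMSO (vehicle), with 3 libraries in each group. The treatment tag of the TSA libraries reads HSA, while the series design text names TSA. The labels give no tissue of origin. Of the defining markers looked up, the neuroendocrine gene CHGA was at 235 to 245 TPM in TSA and 124 to 159 TPM in vehicle, while the bile duct gene CFTR was at 0.0166 to 0.0174 TPM in TSA and 0.0349 to 0.129 TPM in vehicle. KRT19, another bile duct gene, was at 66.7 to 118 TPM in TSA and 163 to 259 TPM in vehicle. The neuroendocrine factor gene INSM1 was at 19.1 to 28.3 TPM in TSA and 538 to 693 TPM in vehicle. TPM is a read count divided by gene length and scaled to the same total in each library, so that levels can be set side by side between genes.

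Cells sense foreign or misplaced nucleic acid through RNA helicases such as RIG-I (encoded by DDX58) and MDA5 (IFIH1), which act through the mitochondrial adaptor MAVS, and through the DNA-activated adaptor STING (TMEM173). The kinase TBK1 then activates IRF3 and IRF7, which switch on interferon genes. Secreted interferons bind paired receptor chains, whose Janus kinases activate STAT factors. The complex ISGF3, which contains STAT2 and IRF9, binds the interferon-stimulated response element (ISRE) in promoters of interferon-stimulated genes, while STAT dimers activated by interferon gamma bind another element, GAS.

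Whole reads recovered from the TPM ratios, which are lower bounds of the depth, came to between 23009041 and 24803310 in the TSA libraries and between 22533307 and 26148651 in the vehicle libraries. The libraries differed in the share of TPM on mitochondrially encoded genes, which was 16.9%, 7.65% and 10.4% in TSA libraries 1, 2 and 3, against 12.3%, 4.97% and 10.1% in vehicle libraries 1, 2 and 3. Replicate 1 had the highest share in each group, and some results that lean on it are given with and without it. Summed over 10 immune cell markers the level was 9.28 to 11.7 TPM in TSA and 5.08 to 6.48 TPM in vehicle. The pan-leukocyte marker PTPRC was at 0.0315 to 0.0647 TPM in TSA and 0.449 to 0.510 TPM in vehicle, and 5 of the 10, CD3E and NKG7 among them, were listed at 0 in all vehicle libraries. The 7 fibroblast and endothelial markers summed to 5.59 to 7.33 TPM in TSA and 0.794 to 1.30 TPM in vehicle, with COL1A2, DCN, LUM and PDGFRB listed at 0 in vehicle. Most of the sum in TSA was COL1A1, at 4.51 to 6.42 TPM in TSA and 0.211 to 0.906 TPM in vehicle. VWF went the other way, at 0.0854 to 0.162 TPM in TSA and 0.398 to 0.558 TPM in vehicle. The part of such markers, of depth and of the mitochondrial share in the results below was not tested. In bulk RNA, more cells with a transcript and more of it per cell cannot be told apart. The labels do not state whether replicates were separate cultures of this single line, and p-values reflect only how far these libraries spread, which may be technical.

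After TSA the pathway moved in both directions. IFI6, ISG15, IRF7, OASL, HERC5 and BST2 were higher, USP18 and the interferon gamma receptor chain gene IFNGR2 were lower, and many of the best-known interferon-stimulated genes, among them MX1, MX2, OAS2, IFI44 and IFI44L, stayed at or near 0 in both groups. Of the 43 genes, 25 reached 1 TPM in at least 3 of the 6 libraries and were tested with limma, and 18 did not. With limma and an adjusted p under 0.05, TSA libraries were higher for 12 of the 25 and lower for 9, while 4 were not called. That is 48% and 36% of the tested members, against 28.0% of all 17596 tested genes called higher and 34.2% called lower (62.2% in all). A change of at least 2-fold on the log2(TPM + 1) scale was reached by 10 of the higher and 3 of the lower members, against 15.5% and 19.7% of all tested genes. Of the 12 higher members, 4 (IFI27, BST2, HERC5 and OASL) were under 1 TPM in every vehicle library, and passed the filter only because they reached 1 TPM in TSA, so their call says little beyond the filter. Leaving these 4 out, 21 tested members had a vehicle library with 1 TPM or more, of which 8 were higher (38.1%) and 9 lower (42.9%), against 23.7% higher and 36.3% lower among the 16574 tested genes at that level. In 22 of the 25 (88%) the TSA and vehicle values did not overlap, against 67.0% of all tested genes. The 22 include IFI27, BST2, HERC5 and OASL, for which the filter left no room for overlap. The median log2 fold change of the 25 was 0.66, and it was −0.10 over all tested genes. It depended on the filter, and was 0.23 over the 21 members at 1 TPM or more in a vehicle library, 0.23 over 19 members with a filter of 5 TPM and 0.14 over all 43 with no filter. A median-of-ratios scaling moved the median of all genes to 0.01, so that small changes are relative to the scaling.

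**Figure D1:**
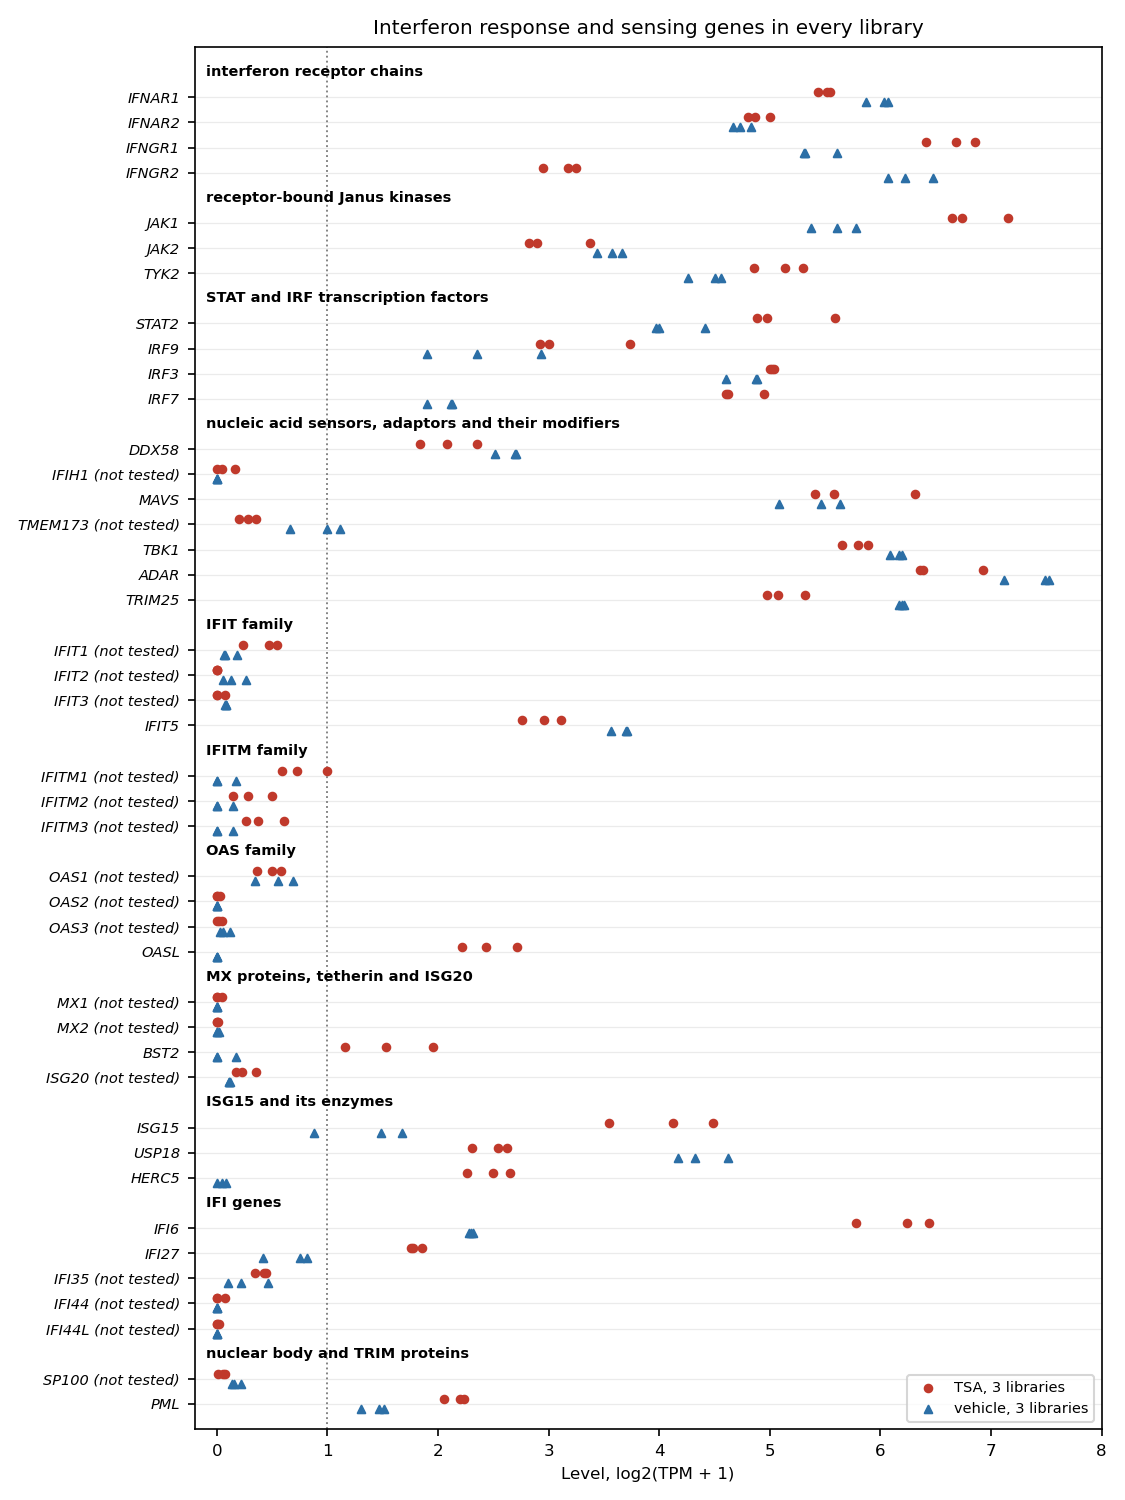
Level of each of the 43 genes as log2(TPM + 1), grouped by role, with 1 circle for each of the 3 TSA libraries and 1 triangle for each of the 3 vehicle libraries; the dotted line marks 1 TPM. IFI6, ISG15, IRF7, OASL, HERC5 and BST2 have all TSA circles to the right of the vehicle triangles, IFNGR2 and USP18 have them to the left, and the genes marked as not tested lie at or below 1.17 TPM in both groups.

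The genes of signalling and sensing were mostly expressed and the antiviral effectors mostly not. Of 18 signalling and sensing genes, 16 passed the filter, and 5 of them were higher and 7 lower in TSA, beside 28.0% higher and 34.2% lower over all tested genes. Of 25 effector genes only 9 passed it, of which 7 were higher and 2 lower, and 4 of those 7 were among the genes that passed through their TSA values alone. The 16 effectors below the filter reached at most 0.993 TPM in any library.

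Ligand genes were near 0. Of the interferon genes looked up, IFNB1, IFNE, IFNL1 and IFNL2 had rows, and none passed the filter. IFNL1, a type III interferon, was at 0.161, 0.156 and 0.659 TPM in TSA and listed at 0 in all 3 vehicle libraries, and the authors' deposited table gives it an FDR of 0.022. IFNB1, interferon beta, was at 0.164, 0 and 0 TPM in TSA and 0.178, 0 and 0 TPM in vehicle. The other interferon genes were not analysed here.

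The chains of the type II receptor, which bind interferon gamma, moved in opposite directions. IFNGR2 (ENSG00000159128.10), the signalling chain, was at 6.74, 8.06 and 8.49 TPM in TSA and 66.2, 87.9 and 73.5 TPM in vehicle. The groups lay far apart, with a mean of 7.77 ± 0.911 TPM in TSA and 75.9 ± 11.1 TPM in vehicle (SD, n = 3 each), and the gene fell by 3.13 on the log2 scale (SE 0.14, limma adjusted p 1.1e-05). IFNGR1 (ENSG00000027697.8), the ligand-binding chain, was at 84.3, 114 and 102 TPM in TSA and 38.6, 47.8 and 39.0 TPM in vehicle. It rose by 1.24 on the log2 scale (SE 0.14, limma adjusted p 0.00037), and every TSA library was above every vehicle library. In TSA the ligand-binding chain was the more abundant of the pair, with a mean of 100.2 TPM beside 7.77 TPM for the signalling chain. In vehicle the order was the reverse, with 41.8 TPM for the ligand-binding chain and 75.9 TPM for the signalling chain.

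The chains of the type I receptor, which binds interferons alpha and beta, changed less. IFNAR1 was at 44.8, 45.6 and 42.3 TPM in TSA and 57.6, 64.3 and 66.2 TPM in vehicle, below vehicle in all libraries (log2 fold change −0.49, SE 0.09, limma adjusted p 0.003). Its call was lost after correcting each library for gene length and GC content (log2 fold change −0.18, limma adjusted p 0.11, the highest over its 19 alternatives, whose lowest was 0.0028). IFNAR2 was at 31.0, 28.2 and 26.8 TPM in TSA and 25.5, 27.4 and 24.4 TPM in vehicle. These values overlapped and did not pass the test (limma adjusted p 0.23, and 0.029 to 0.54 over its alternatives). The type III receptor genes IFNLR1, at 15.2 ± 4.73 TPM in TSA and 21.5 ± 0.557 TPM in vehicle (SD, n = 3 each), and IL10RB, at 54.1 ± 8.14 TPM in TSA and 48.2 ± 6.34 TPM in vehicle, were not called by limma either (adjusted p 0.064 and 0.38). IFNLR1 was called without TSA replicate 1 (log2 fold change −0.74, adjusted p 0.0014) and without both replicate 1 libraries (−0.72, adjusted p 0.0049).

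Of these receptor genes, IFNAR1, IFNGR2, IL10RB and IFNAR2 lie close together. In the order of protein-coding genes of GENCODE 29, IFNAR1 lies next to IFNGR2 on chromosome 21, and IL10RB and IFNAR2 lie on the far side of IFNAR1. On the other side of IFNGR2 lie TMEM50B, which rose by 1.04 on the log2 scale (SE 0.11, limma adjusted p 0.00028), and DNAJC28, which rose by 2.20 (SE 0.17, adjusted p 6.1e-05). The large fall of IFNGR2 was thus flanked by a smaller fall on the side of IFNAR1 and by rises on the side of TMEM50B.

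Of the Janus kinases, which sit on the receptors' inner face, JAK1 and TYK2 were higher. JAK1, used by the type I and type II interferon receptors alike, was at 141, 106 and 99.1 TPM in TSA and 47.7, 40.4 and 53.8 TPM in vehicle. The groups did not overlap, and the gene rose by 1.26 on the log2 scale (SE 0.17, limma adjusted p 0.00067). TYK2, the kinase bound to IFNAR1, was at 38.4, 28.1 and 34.2 TPM in TSA and 22.5, 18.2 and 21.7 TPM in vehicle, again without overlap (log2 fold change 0.66, SE 0.15, limma adjusted p 0.0074). JAK2, a kinase of the interferon gamma receptor, was at 9.39, 6.10 and 6.45 TPM in TSA and 11.7, 9.84 and 10.9 TPM in vehicle. TSA library 1 came close to the lowest vehicle library, and the fall of 0.53 on the log2 scale was just past the threshold (SE 0.18, limma adjusted p 0.041). That call ended in 9 of 19 alternatives, with an adjusted p of 0.13 without TSA replicate 2, 0.13 without TSA replicate 3, 0.12 without vehicle replicate 1, 0.058 without vehicle replicate 2, 0.10 without vehicle replicate 3 and 0.24 after a correction for gene length and GC content (log2 fold change −0.23). The values without mitochondrial genes (0.096), with no filter (0.065) and in voom (0.052) missed it too. The call held without TSA replicate 1 (log2 fold change −0.70, limma adjusted p 0.0053) and without both replicate 1 libraries (−0.64, adjusted p 0.014).

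Among the transcription factors, IRF7 (ENSG00000185507.15), the interferon regulatory factor that drives most interferon alpha genes and is itself interferon-stimulated, changed most. It was at 23.3, 23.6 and 29.8 TPM in TSA and 3.36, 3.33 and 2.74 TPM in vehicle. The values within each group were close together, and the mean in TSA was 8.13 times that in vehicle (log2 fold change 2.67, SE 0.15, limma adjusted p 2.1e-05). STAT2, the STAT found in ISGF3, was at 47.1, 28.6 and 30.4 TPM in TSA and 20.3, 14.7 and 15.0 TPM in vehicle. Library 1 was the highest of each group, and the log2 fold change was 1.02 (SE 0.22, limma adjusted p 0.0064), or 0.95 without both replicate 1 libraries (adjusted p 0.0015). IRF9, the DNA-binding partner in ISGF3, was at 12.3, 6.57 and 7.04 TPM in TSA and 6.63, 2.73 and 4.10 TPM in vehicle. Its values overlapped, with library 1 again the highest of each group, and the log2 fold change of 0.83 did not pass the test (SE 0.33, limma adjusted p 0.066, and 0.003 to 0.22 over its alternatives). It passed without vehicle replicate 1 (log2 fold change 1.10, adjusted p 0.028) and without both replicate 1 libraries (0.84, adjusted p 0.018), and the authors' deposited table gives it an FDR of 0.0075. IRF3, the constitutive factor downstream of TBK1, was at 31.4, 31.0 and 31.9 TPM in TSA and 28.5, 28.4 and 23.3 TPM in vehicle. It lay slightly above vehicle without overlap but did not pass the test (log2 fold change 0.23, limma adjusted p 0.1), and its direction turned after a correction for gene length and GC content (−0.0537, adjusted p 0.67).

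Of 7 other STAT and IRF genes tested from a list of the pathway, 3 were higher and 2 lower, beside 28.0% and 34.2% of all tested genes. STAT3, a STAT of cytokine signalling, was at 115, 98.0 and 97.4 TPM in TSA and 45.7, 42.4 and 50.4 TPM in vehicle, a rise of 1.15 on the log2 scale without overlap (SE 0.11, limma adjusted p 0.00015). IRF5 fell by 1.06 and IRF2BP2 by 0.97. IRF1, a factor induced by interferon gamma, did not pass the test, at 4.94 ± 0.533 TPM in TSA and 4.36 ± 0.842 TPM in vehicle (limma adjusted p 0.47).

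**Figure D2:**
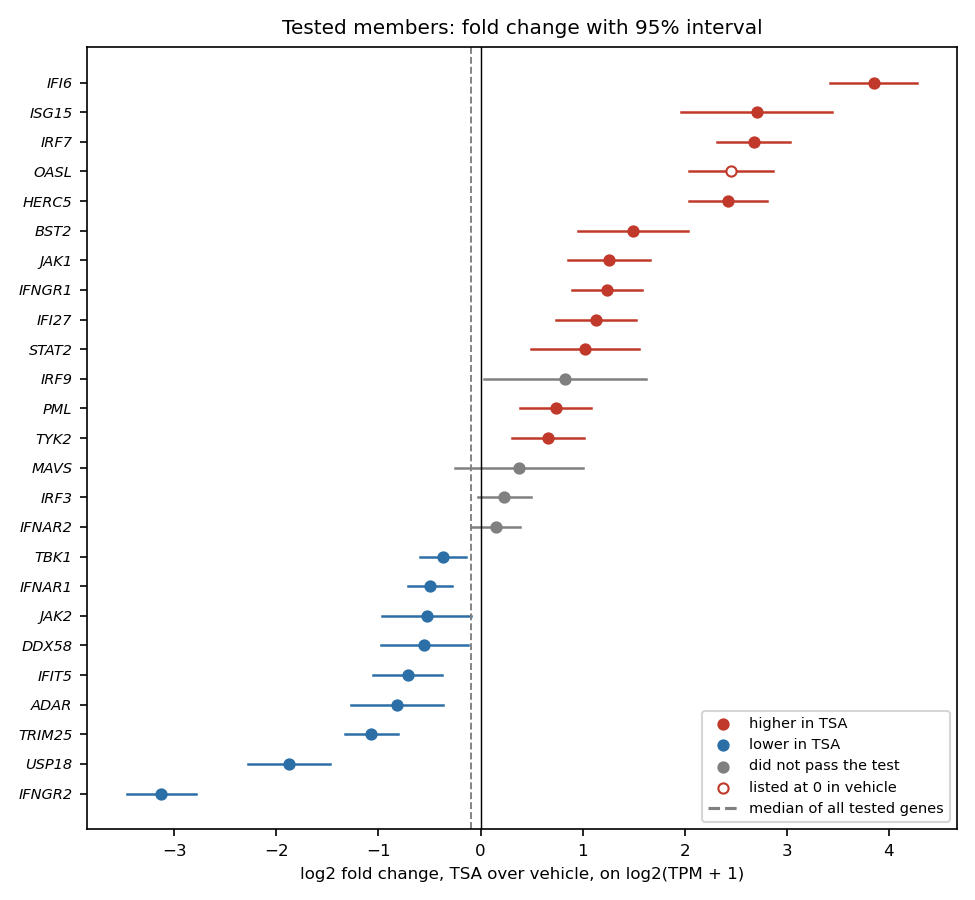
Log2 fold change of TSA over vehicle on the log2(TPM + 1) scale for the 25 tested genes (points) with limma's 95% interval (lines), ordered by size; the dashed line is the median of all tested genes, −0.10. IFI6 lies at the upper end at 3.85 and IFNGR2 at the lower end at −3.13, and the open point marks OASL, which was listed at 0 in vehicle.

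Of the 5 tested genes of sensing and its adaptors 4 were called lower and 0 higher, beside 34.2% lower and 28.0% higher over all tested genes, and the calls of DDX58 and TBK1 among them were lost under some alternatives. DDX58, which encodes the RNA sensor RIG-I, was at 4.11, 2.57 and 3.24 TPM in TSA and 5.50, 4.72 and 5.51 TPM in vehicle. The groups did not overlap, but the fall of 0.55 on the log2 scale was close to the threshold (SE 0.18, limma adjusted p 0.033). It ended in 7 of 18 alternatives, among them without TSA replicate 2 (adjusted p 0.11), without TSA replicate 3 (0.091), without vehicle replicate 1 (0.093), without vehicle replicate 3 (0.095) and after a correction for gene length and GC content (log2 fold change −0.34, adjusted p 0.14). IFIH1, the gene of the RNA sensor MDA5, was at 0, 0.118 and 0.0312 TPM in TSA and listed at 0 in all vehicle libraries. MAVS, the adaptor of both sensors, was at 78.5, 41.4 and 46.9 TPM in TSA and 48.6, 32.9 and 43.1 TPM in vehicle. TSA library 1 stood above the others and the groups overlapped (log2 fold change 0.37, limma adjusted p 0.26). Without that library the log2 fold change was 0.10 (adjusted p 0.64), and after a correction for gene length and GC content it was 0.64 (adjusted p 0.0015).

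TMEM173, the gene of the DNA-sensing adaptor STING, was low throughout, at 0.215, 0.279 and 0.147 TPM in TSA and 1.17, 0.992 and 0.587 TPM in vehicle. It did not pass the filter, its groups did not overlap, and the authors' deposited table gives a log2 fold change of −2.0 with an FDR of 0.00039. MB21D1, the gene of the DNA sensor cGAS that signals to STING, was at 0 to 0.0994 TPM in TSA and 0 to 0.0721 TPM in vehicle. TBK1, the kinase on which both routes meet, was at 49.4, 58.4 and 54.7 TPM in TSA and 67.1, 72.0 and 71.0 TPM in vehicle. It fell by 0.37 on the log2 scale without overlap (SE 0.09, limma adjusted p 0.012), but was not called with other scalings, namely by median of ratios (−0.25, adjusted p 0.18), by quantiles (−0.25, adjusted p 0.062) or with voom on recovered reads (−0.24, adjusted p 0.10). Thus the kinase was abundant while the cGAS and STING genes upstream of it were at or below 1.17 TPM in all 6 libraries.

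The sensing genes counted above as called lower included TRIM25 and ADAR, which tune RNA sensing. TRIM25, a ubiquitin ligase that activates RIG-I, was at 38.8, 32.7 and 30.4 TPM in TSA and 73.3, 70.9 and 72.2 TPM in vehicle, a fall of 1.07 on the log2 scale without overlap (SE 0.11, limma adjusted p 0.0002). ADAR, which edits double-stranded RNA and so limits its sensing by MDA5, was at 121, 82.8 and 80.9 TPM in TSA and 178, 138 and 183 TPM in vehicle. It fell by 0.82 (SE 0.19, limma adjusted p 0.0086), and was the most abundant of the 43 genes in vehicle.

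Other sensing genes, from a list of genes that are not members, were lower more often than higher, with 13 of 22 tested lower and 5 higher (28.0% higher and 34.2% lower over all tested genes) and a median log2 fold change of −0.56. MYD88, the adaptor of most Toll-like receptors, fell to 2.38, 2.62 and 2.23 TPM in TSA, against 20.2, 20.3 and 19.2 TPM in vehicle (log2 fold change −2.62, SE 0.12, limma adjusted p 1.2e-05). Its kinase partner IRAK1 fell by 2.97 on the log2 scale, to 29.6 ± 8.30 TPM in TSA, against 235 ± 43.3 TPM in vehicle (SD, n = 3 each). ZCCHC3, described as a cofactor of RIG-I-like receptors and cGAS, fell by 2.12. DHX58, the third RIG-I-like receptor gene and an interferon-stimulated gene, went the other way, to 5.77, 4.33 and 3.79 TPM in TSA, against 0.156, 0.290 and 0.184 TPM in vehicle (log2 fold change 2.20, SE 0.18, limma adjusted p 7.8e-05). It was under 1 TPM in every vehicle library and so was tested through its TSA values, and its log2 fold change ran from 1.92 to 4.51 over the alternatives. The 3 RIG-I-like receptor genes thus differed, with DHX58 higher, DDX58 slightly lower and IFIH1 near 0 in both groups.

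Of 9 genes that clear or modify nucleic acid, 5 were called higher and 2 called lower, beside 28.0% and 34.2% of all tested genes. Their median log2 fold change was 0.45. RNASEH2B, a subunit of the ribonuclease that removes RNA from RNA-DNA hybrids, fell to 20.7, 27.4 and 26.0 TPM in TSA, against 114, 128 and 133 TPM in vehicle (log2 fold change −2.30, SE 0.13, limma adjusted p 2.1e-05). The lysosomal ribonuclease gene RNASET2 rose by 0.97 on the log2 scale, the RNA editing enzyme gene ADARB1 by 0.91, and SAMHD1, which breaks down deoxynucleotides, by 0.65. SAMHD1 was at 53.9, 51.4 and 47.9 TPM in TSA and 33.4, 30.1 and 32.7 TPM in vehicle. ADARB1 and ADAR, both editors of double-stranded RNA, thus moved in opposite directions.

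IFI6 (ENSG00000126709.10), a mitochondrial and endoplasmic reticulum protein with antiviral and survival roles, had the highest log2 fold change of the 25 tested members on log2(TPM + 1), although the ratio of means was larger for HERC5, BST2 and OASL, which were near 0 in vehicle. It was at 53.8, 85.9 and 74.4 TPM in TSA and 3.98, 3.87 and 3.92 TPM in vehicle. The vehicle libraries were nearly equal, every TSA library was far above them, and the log2 fold change was 3.85 (SE 0.18, limma adjusted p 1.2e-05). ISG15 (ENSG00000187608.5), a ubiquitin-like protein that is joined to other proteins, was at 10.6, 16.4 and 21.5 TPM in TSA and 0.842, 1.79 and 2.19 TPM in vehicle. Its spread within groups was wider than that of IFI6, but the groups did not overlap (log2 fold change 2.71, SE 0.31, limma adjusted p 0.00034).

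Among the enzymes that join ISG15 to proteins UBE2L6 rose, and HERC5 and UBA7 were seen above 1 TPM in TSA alone, while the enzyme that removes ISG15 fell. HERC5 (ENSG00000138646.4), the main human ISG15 ligase, was at 3.78, 5.29 and 4.65 TPM in TSA and 0.0628, 0.0334 and 0 TPM in vehicle. Its TSA and vehicle values were far apart (limma adjusted p 3.6e-05), and since vehicle was near 0 the log2 fold change of 2.42 (SE 0.16) depended on the setting, from 2.33 to 7.03 over the alternatives. Of the other listed genes, UBE2L6, the conjugating enzyme of ISG15, was at 20.9, 27.2 and 24.9 TPM in TSA and 1.02, 0.507 and 0.450 TPM in vehicle (log2 fold change 3.94, SE 0.19, limma adjusted p 1.3e-05). UBA7, its activating enzyme, was at 1.24, 1.06 and 1.52 TPM in TSA and 0.132, 0.0701 and 0.0622 TPM in vehicle, without overlap. UBA7 and HERC5 passed the filter through their TSA values alone. USP18 (ENSG00000184979.9), which removes ISG15 and also blocks the type I receptor, was at 3.94, 5.16 and 4.84 TPM in TSA and 19.1, 23.6 and 16.98 TPM in vehicle. It fell by 1.88 on the log2 scale without overlap (SE 0.17, limma adjusted p 0.00012), and its value is uncertain because it has a near-identical copy, USP41. UBA7 was named after its values were seen.

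OASL (ENSG00000135114.8), an oligoadenylate synthetase-like protein without synthetase activity, was at 3.65, 5.57 and 4.41 TPM in TSA and listed at 0 in all vehicle libraries. Against a floor of 3 recovered reads in each vehicle library the mean in TSA was at least 23.6-fold higher (limma adjusted p 4.5e-05). Its enzymatically active relatives stayed low. OAS1 was at 0.493, 0.412 and 0.289 TPM in TSA and 0.268, 0.611 and 0.470 TPM in vehicle, with full overlap, and OAS2 and OAS3 reached at most 0.0856 TPM in any library. BST2 (ENSG00000130303.8), tetherin, which holds budding viruses at the cell surface, was at 1.23, 2.88 and 1.89 TPM in TSA and 0, 0 and 0.126 TPM in vehicle (limma adjusted p 0.0012, log2 fold change 1.49, and 1.26 to 4.47 over the alternatives). IFI27, a mitochondrial protein of the IFI6 family, was at 2.62, 2.39 and 2.41 TPM in TSA and 0.756, 0.689 and 0.340 TPM in vehicle (log2 fold change 1.131, SE 0.16, limma adjusted p 0.00095, and a log2 fold change of 1.01 to 2.25 over the alternatives). OASL, BST2 and IFI27 passed the filter through their TSA values alone. They could therefore not be called lower, and their p-values say little beyond the filter. PML, the scaffold of nuclear bodies, was at 3.59, 3.16 and 3.70 TPM in TSA and 1.47, 1.76 and 1.85 TPM in vehicle, a rise of 0.74 on the log2 scale (SE 0.15, limma adjusted p 0.0042), and of 0.66 to 1.17 over the alternatives. Its nuclear body partner SP100 was at 0.0108 to 0.0556 TPM in TSA and 0.1002 to 0.165 TPM in vehicle.

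In the IFIT family, whose proteins bind viral RNA, 1 member was expressed and 3 were near 0. IFIT5 was at 5.76, 7.65 and 6.79 TPM in TSA and 12.0, 12.1 and 10.8 TPM in vehicle, a fall of 0.71 on the log2 scale without overlap (SE 0.14, limma adjusted p 0.0043). The call ended under a quantile normalization (adjusted p 0.062, the highest over its 19 alternatives, whose lowest was 0.0032). IFIT1 was at 0.179, 0.392 and 0.459 TPM in TSA and 0.0486, 0.0517 and 0.138 TPM in vehicle, which is 4, 9 and 10 recovered reads in TSA and 1, 1 and 3 in vehicle. IFIT2 was listed at 0 in TSA and had 1, 2 and 5 recovered reads in vehicle, and IFIT3 reached at most 0.0603 TPM in any library.

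The remaining effectors were near the limit of detection in both groups. IFITM1, a membrane protein that blocks virus entry, was at 0.510 to 0.993 TPM in TSA and 0 to 0.131 TPM in vehicle. Its relatives IFITM2, at 0.105 to 0.410 TPM in TSA, and IFITM3, at 0.204 to 0.524 TPM in TSA, were listed at 0 in vehicle libraries 1 and 2 and had 1 recovered read in vehicle library 3. The IFITM genes are near-identical copies, so reads may be split between them. MX1 and MX2, the antiviral dynamin-like proteins, IFI44 and IFI44L reached at most 0.0504 TPM in any library. ISG20, an exonuclease, was at 0.127 to 0.280 TPM in TSA and 0.0767 to 0.0865 TPM in vehicle, and IFI35 was at 0.272 to 0.358 TPM in TSA and 0.0716 to 0.379 TPM in vehicle. In the authors' deposited table, which also covers genes below the filter, 3 of the 18 members below it had an FDR under 0.05 and were higher (IFIT1, IFITM1 and IFITM3), and 3 were lower (TMEM173, IFIT2 and SP100). Over all genes below the filter that table called 13.7% higher and 5.83% lower.

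To set these differences beside the promoters, RefSeq windows on GRCh38.p14, from 250 bases before to 50 bases after each annotated start, were searched on both strands for the ISRE core, which is GAAA, any 2 bases and GAAA. That build is not the hg19 build of the deposited files. Only a gap of exactly 2 bases counted as a match. The windows of DDX58, TRIM25, OAS1 and IFI35 hold 2 copies of GAAA that lie 1 base apart on the same strand. These were not counted, so a gene without the core may still hold a related sequence. Of the 43 genes 32 had a window, DDX58 by its current symbol, and for genes with several starts any window counted. IFNAR2, IRF3, IRF7, TMEM173, IFIT2, IFITM2, OAS2, OASL, MX2, USP18 and PML had none. Windows of 16 of the 32 genes (50%) held the core, against 4.38% of 27305 genes with a window. The core was found in 5 of 9 genes called higher, 1 of 8 called lower, 0 of 2 that did not pass the test and 10 of 13 below the filter. Of these 5, BST2, HERC5 and IFI27 passed the filter through their TSA values alone, so they could not be called lower. The remaining genes of the 5, IFI6 and ISG15, reached 1 TPM in a vehicle library.

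The windows below show these cases, written in lower case from 5′ to 3′ on the strand of the gene with each ISRE core, in either orientation, in capitals. IFI6, ISG15 and HERC5 rose, IFIT5 fell, and its neighbour IFIT1 stayed under 1 TPM.
IFI6 promoter (higher in TSA, chr1:27672143-27672442, minus strand): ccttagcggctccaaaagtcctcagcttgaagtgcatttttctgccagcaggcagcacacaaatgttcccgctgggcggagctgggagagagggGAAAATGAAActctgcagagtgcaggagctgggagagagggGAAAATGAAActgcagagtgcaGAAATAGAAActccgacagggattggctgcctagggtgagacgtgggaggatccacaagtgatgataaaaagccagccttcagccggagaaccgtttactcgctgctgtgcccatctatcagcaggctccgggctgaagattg
ISG15 promoter (higher in TSA, chr1:1013247-1013546, plus strand): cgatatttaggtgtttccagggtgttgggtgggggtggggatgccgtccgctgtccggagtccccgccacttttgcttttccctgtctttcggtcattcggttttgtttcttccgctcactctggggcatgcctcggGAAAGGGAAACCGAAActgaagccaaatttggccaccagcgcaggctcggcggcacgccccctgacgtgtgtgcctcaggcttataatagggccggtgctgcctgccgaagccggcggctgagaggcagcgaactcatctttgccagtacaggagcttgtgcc
HERC5 promoter (higher in TSA, chr4:88456869-88457168, plus strand): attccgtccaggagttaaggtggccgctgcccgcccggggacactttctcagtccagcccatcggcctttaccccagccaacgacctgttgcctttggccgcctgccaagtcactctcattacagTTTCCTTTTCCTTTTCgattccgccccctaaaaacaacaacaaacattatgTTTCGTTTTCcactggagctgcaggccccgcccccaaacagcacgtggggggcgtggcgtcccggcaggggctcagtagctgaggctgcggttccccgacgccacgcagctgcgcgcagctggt
IFIT5 promoter (lower in TSA, chr10:89414318-89414617, plus strand): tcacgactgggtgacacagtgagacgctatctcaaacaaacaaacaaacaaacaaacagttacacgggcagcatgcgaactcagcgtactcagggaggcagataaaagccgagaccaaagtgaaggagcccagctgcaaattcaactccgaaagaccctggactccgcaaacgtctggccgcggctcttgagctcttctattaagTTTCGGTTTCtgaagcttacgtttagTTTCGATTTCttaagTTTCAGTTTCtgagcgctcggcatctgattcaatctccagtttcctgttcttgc
IFIT1 promoter (under 1 TPM in both groups, chr10:89392373-89392672, plus strand): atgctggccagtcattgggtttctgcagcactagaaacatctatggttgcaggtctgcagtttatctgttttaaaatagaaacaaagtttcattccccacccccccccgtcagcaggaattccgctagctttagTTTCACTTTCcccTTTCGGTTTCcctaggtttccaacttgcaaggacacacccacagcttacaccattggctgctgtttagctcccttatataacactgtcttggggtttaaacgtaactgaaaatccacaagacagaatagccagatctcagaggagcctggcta

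IFI6 has 3 separate cores, the first beginning 156 bases before the start. ISG15 has 2 overlapping cores beginning 113 and 107 bases before it, and HERC5 has 3, of which 2 overlap. IFIT5 has 3 cores close to the start, beginning 45, 19 and 4 bases before it, while IFIT1 has 2, beginning 116 and 103 bases before it. An ISRE core was thus present in promoters of genes that rose, of a gene that fell and of genes that stayed near 0, and a match of letters does not show that a factor binds. The longer core, with CT directly after the second GAAA, was found in 12 of the 32 genes and in 0.322% of all genes with a window. The GAS core TTCNNNGAA, which reads the same on both strands, was found in 7 of the 32 genes, against 9.38% of all genes. In BST2, IFI27, IFITM1 and MX1 a GAS match overlaps an ISRE match. The GC box GGGCGG, on either strand, was found in 20 of the 32 (62.5%), against 48.3% of all genes.

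**Figure D3:**
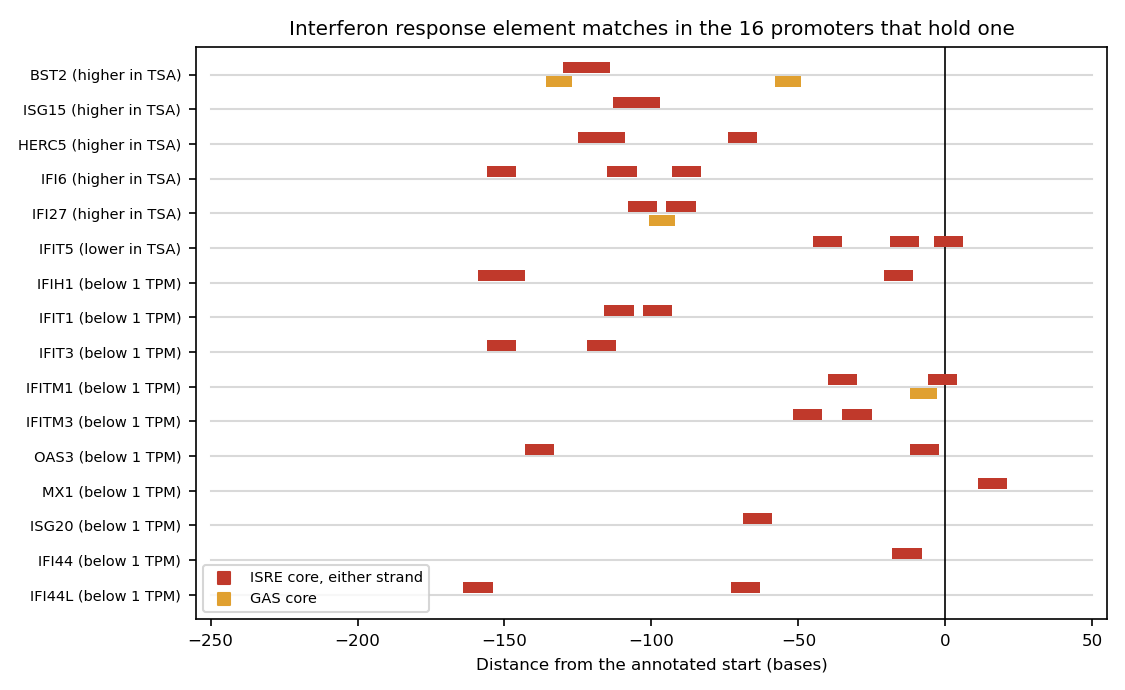
Position of each ISRE core match (upper blocks) and GAS core match (lower blocks) from 250 bases before to 50 bases after the annotated start, in bases, for the 16 genes whose window holds an ISRE core; where a gene has several windows the one with most ISRE matches is drawn. ISRE matches begin within 164 bases before the start in these windows apart from that of MX1, which lies after the start, and genes that were higher, lower or below 1 TPM all have them.

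Windows of the genes below the filter held fewer CpG pairs. The ratio of observed to expected CpG pairs, taken over the first listed window of each gene, had a median of 0.806 in the 19 tested genes with a window, 0.360 in the 13 genes below the filter and 0.579 over all 35116 windows. The values ran from 0.0962 to 1.02 in the tested genes and from 0 to 0.731 in those below the filter. These are descriptions of genes, with no test. BST2 was the tested gene with the lowest ratio.

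Other interferon-stimulated genes, from a list of genes that are not members, moved in both directions too. Of 48 with a row, 21 passed the filter, and 6 were higher and 10 lower in TSA, beside 28.0% and 34.2% of all tested genes, with a median log2 fold change of −0.40. Of the 6 higher genes, 3 (UBA7, C19orf66 and CXCL11) were under 1 TPM in every vehicle library and were tested through their TSA values alone. IFI30, a lysosomal thiol reductase of antigen processing, was at 311, 444 and 430 TPM in TSA and 34.5, 58.1 and 31.0 TPM in vehicle (log2 fold change 3.27, SE 0.26, limma adjusted p 7.3e-05). C19orf66, which encodes an inhibitor of viral frameshifting, was at 3.33, 3.27 and 3.58 TPM in TSA and 0, 0.11 and 0.0325 TPM in vehicle. It and CXCL11 were also named after their values were seen. EIF2AK2, the kinase PKR that stops translation on double-stranded RNA, fell to 4.40, 2.51 and 2.53 TPM in TSA, against 25.5, 21.2 and 23.9 TPM in vehicle (log2 fold change −2.59, SE 0.20, limma adjusted p 7.1e-05). ZC3HAV1, the zinc finger antiviral protein, fell by 2.17 on the log2 scale. RSAD2, viperin, fell to 0.370, 0.333 and 0.321 TPM in TSA, against 1.77, 1.45 and 1.43 TPM in vehicle (log2 fold change −0.92, SE 0.14, limma adjusted p 0.0011, and −1.997 to −0.81 over the alternatives). Of the 10 lower genes, RSAD2, PARP12 and APOL2 were under 1 TPM in every TSA library. They were tested through their vehicle values alone and could not be called higher, so their calls say little beyond the filter.

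Of 10 tested negative regulators of JAK and STAT signalling 3 were called higher and 4 called lower, which is near the 28.0% and 34.2% of all tested genes. Their median log2 fold change was 0.06. PTPN1, a phosphatase of JAK2 and TYK2, rose by 1.04 on the log2 scale and PTPN6, another phosphatase of JAK kinases, rose by 0.84 (0.54 to 1.128 over the alternatives). PIAS3, an inhibitor of STAT3, fell by 1.298, and SOCS3, a feedback inhibitor of cytokine receptors, fell to 9.08, 8.06 and 9.16 TPM in TSA, against 22.6, 18.6 and 20.4 TPM in vehicle. Over all listed genes of the pathway that are not members, 22 of 71 tested were higher and 31 lower, beside 28.0% and 34.2% of all tested genes, with a median log2 fold change of −0.21.

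**Figure D4:**
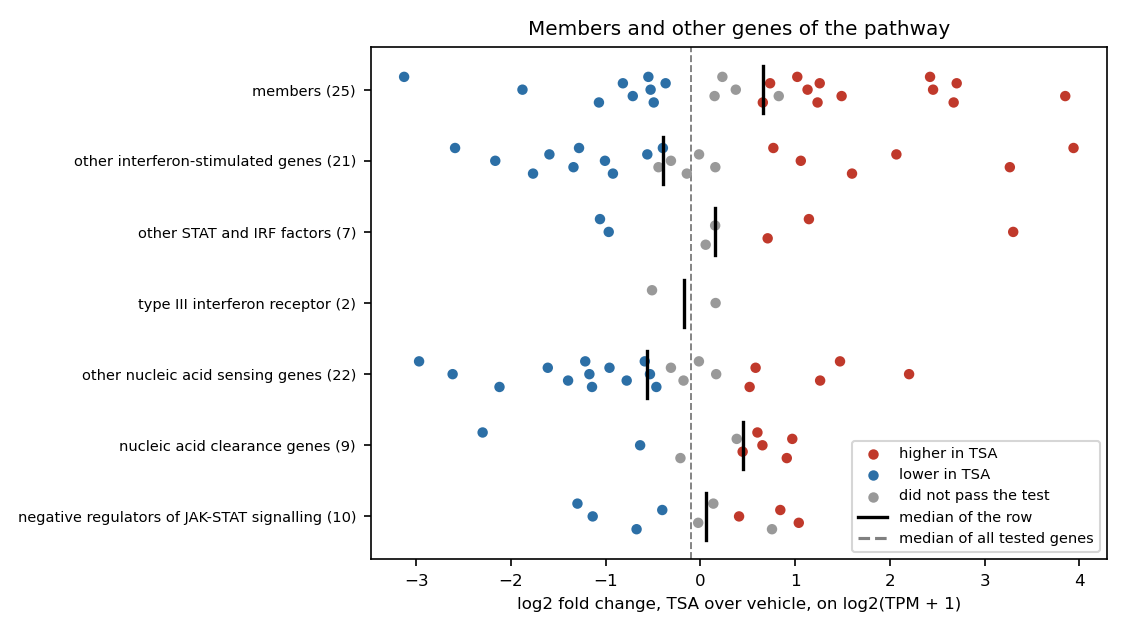
Log2 fold change of TSA over vehicle on the log2(TPM + 1) scale for the 25 tested members and for the tested genes of each pathway list, with the number of genes in brackets; red points were higher, blue points lower and grey points did not pass the test. Short black lines mark the median of each row (0.66 for the members, −0.40 for other interferon-stimulated genes and −0.56 for other sensing genes), and the dashed line marks −0.10, the median of all tested genes.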

How the data were processed

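The authors deposited TPM (reads per gene length, scaled to the same total in each library) for 31814 genes, with GENCODE 19 in the table's name. The submitters' processing notes list hg19, STAR 2.5.3a, featureCounts, edgeR, Picard 1.127 and FastQC 0.11.2, without roles. The libraries were made with a strand-specific kit, the counting's use of strand was not given in the sources used here, and antisense neighbours may share reads. The authors' deposited table gives, per the file headers, a log2 fold change, a likelihood ratio score, a p-value and an FDR. Its sign matched TSA minus vehicle in 100% of 13127 genes with an FDR under 0.05.

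Members and lists were chosen with earlier results of these data known. Genes that reached 1 TPM in 3 or more libraries were tested with limma 3.58.1 in R 4.3.3 (eBayes with trend, two-sided) on log2(TPM + 1), a scale that understates changes of low genes, with Benjamini-Hochberg adjustment over all 17596. Values by library are given for members past the test with a change of at least 2-fold and no overlap, and for a set of signalling genes. From each other list the 4 called genes with the greatest change were named, or the 2 most abundant where fewer than 2 were called, with IRF1, MB21D1, DHX58, RSAD2 and EIF2AK2, and some genes that this rule covers are not reported here. Further genes (the interferon ligands, UBA7, C19orf66, the neighbours of IFNGR2) and further values by library were added after values were seen. Whole reads were recovered from TPM ratios for 100% of 27644 genes above 0 in at least 2 libraries (relative tolerance 1e-12), as the smallest whole numbers possible, and a gene above 0 in a single library was given 1. Replicates differed by more than sampling noise. The alternatives were pseudocounts of 0.1 and 0.5, other filters, scalings and limma options, voom on recovered reads, removal of length and GC trends (GENCODE 29, 94.8% of genes matched), the replicate number as a block, and libraries left out. The test and the motif search were checked on simulated data.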

Additional observations from a re-analysis of the deposited data

How the results depend on the processing

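Over 19 alternatives the number of members called higher was 7 to 15, against 12, and the number called lower was 6 to 9, against 9. With a filter of 5 TPM 7 were higher, since members of low level were then not tested. Leaving out each library in turn gave 12 to 13 higher and 7 to 9 lower members, 4289 to 4977 higher and 5157 to 6585 lower genes over the whole table, and 20 to 22 higher and 25 to 33 lower listed pathway genes. Of the 21 called members 16 kept their call under every alternative that tested them, the other 5 (IFNAR1, JAK2, DDX58, TBK1 and IFIT5) lost it in at least 1, and 0 turned in sign. Of the 25 tested members IRF3 alone turned, to a log2 fold change of −0.0537 with length and GC trends removed. Same-numbered libraries share only a number in the labels, and their deviations from the group means correlated at 0.633, 0.59 and −0.073 for numbers 1, 2 and 3. With the replicate block 14 members were higher and 9 lower, IRF9 (adjusted p 0.003) and MAVS (adjusted p 0.036) being added, and 5637 genes were higher and 6848 lower over the table. The ISRE core was in 16 genes also when the search was narrowed to a shorter stretch before the start, and in 12 with the longer core. About 1 recovered read is the lowest level these libraries can show, so values of members with few reads carry a large counting error.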
